A study of Vulpes vulpes with 8 samples.

Results

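Oxidative phosphorylation is the chain of mitochondrial enzymes that turns the energy of NADH and succinate into ATP. The genes described here mostly encode its nuclear subunits, and they include ATP5IF1, an inhibitor of ATP synthase. In all, 63 genes were read by 124 probe sets of the array, of 15115 genes with a symbol of their own in the array's annotation. They were chosen by symbol, as those starting with NDUFA, NDUFB, NDUFC, NDUFS, NDUFV, UQCR, COX4I, COX5, COX6, COX7, COX8 or ATP5, together with SDHA to SDHD, and without the assembly factors NDUFAF. By enzyme they fell into 33 genes of complex I, 4 of complex II, 7 of complex III, 9 of complex IV and 10 of complex V. NDUFA4 and its paralog NDUFA4L2 were counted with complex IV, since NDUFA4 is a subunit of that enzyme in spite of its name.

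Complex I (NADH dehydrogenase) and complex II (succinate dehydrogenase, which is also an enzyme of the citric acid cycle) pass electrons to ubiquinone. Complex III (the cytochrome bc1 complex) hands them to cytochrome c, and complex IV (cytochrome c oxidase) passes them on to oxygen. Complexes I, III and IV pump protons out of the mitochondrial matrix, and complex V (ATP synthase) uses the return of the protons to make ATP. Most subunits are present in nearly every cell. A few have partners that are used in muscle, in lung or in tissue short of oxygen, such as COX7A1, COX6A2, COX4I2 and NDUFA4L2.

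The tissue was gum (gingiva) of red foxes, Vulpes vulpes, from animals that had HHG (hereditary hyperplastic gingivitis, an inherited enlargement of the gum) or did not. The disease was diagnosed by eye from its early signs at the tooth margins. The affected group was 5 foxes (19, 55 and 107, males, and 381 and 757, females) and the unaffected group 3 foxes (86 and 97, males, and 402, female), with 1 Affymetrix Canine 2 array per fox. Some pieces were taken in the pelting season after euthanasia and others in late spring from anaesthetised animals, and the labels do not give the season or the age of each fox. Dog probes read the fox RNA, and a piece of gum holds many cell types, so fewer cells of a type and less RNA per cell cannot be told apart. Values are the deposited MAS5 signal, a linear intensity, and differences are affected minus unaffected on the log2(signal + 16) scale, where the offset of 16 shrinks the differences of dim probe sets.

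Each gene was read by its probe set with the highest mean, and each of the 63 lay among the 10824 genes kept after the dimmest 40% of probe sets were left out. No member's probe set was at background, the 95th percentile of 42 bacterial control probe sets, on any array. Background ran from 7.42 to 16.6 over the arrays, and the share of probe sets brighter than it from 63.4% to 74.7%. The epithelial keratin KRT13 read from 6515 to 12982 over the 8 foxes, and the summed fibroblast markers from 8220.04 to 30667, so epithelium and connective tissue were both present. The 5' actin control reads the 5' end of the actin transcript. It split the foxes into 86, 97, 107 and 757 (7831 to 8868) and 19, 55, 381 and 402 (1354 to 2336). The 3' actin control of the same series also parted these sets, at 12688 to 14956 and 7585 to 9722. The log2 ratio of these 5' to 3' controls was -0.77 to -0.58 in the first set and -2.84 to -1.83 in the second. In another actin series on the array the 5' control parted the sets, at 8593 to 9681 and 3993 to 4823. Its 3' control did not, at 6584 to 8541 and 6266 to 8254. These sets are called high and low 5' actin below, and fox 402 is the only unaffected fox of the low set.

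Subunit genes as a body had slightly higher means in affected gum, and no single member passed the test. Of the 63 members, 49 had a higher mean in affected foxes and 14 a lower one, where 45.3% of all genes tested had a higher mean. The median difference was 0.075, against -0.026 over all genes tested. The share of members is thus above that of all genes, but the sizes are small: 30 members differed by less than 0.1, and the median standard error of a member's difference was 0.17. limma, a linear model with a shared estimate of the spread, called 0 members and 0 of all genes (0% called) at an adjusted p under 0.05, and each member had an adjusted p of 0.9999. At an unadjusted p under 0.05, limma gave 1 member higher, where 1.24% of genes were higher, and 0 lower, where 1.3% were lower. The groups did not overlap in 2 members, both higher in affected foxes, where 1.12% of genes did so, and in 0 members lower, where 1.32% did so.

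The count leans on the scaling and on single foxes. With quantile normalization, which gives every array the same distribution, 39 of 63 members were higher beside 49.2% of all genes, and with arrays centred on their medians 54 of 63 beside 51.4%. Without COX4I2, COX6A2, COX7A1, COX7A2L, NDUFA4L2 and the inhibitor ATP5IF1, 43 of 57 members were higher. Leaving out 1 fox at a time gave 43 to 51 members higher, and 26 of the 63 changed sign when some fox was left out. In females alone 36 of 63 were higher beside 50.4% of all genes, with a median of 0.033. The median difference was 0.048 and 0.12 when affected foxes 55 and 19 were left out, 0.11 when unaffected fox 86 was, and 0.027 with quantile normalization.

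**Figure D1:**
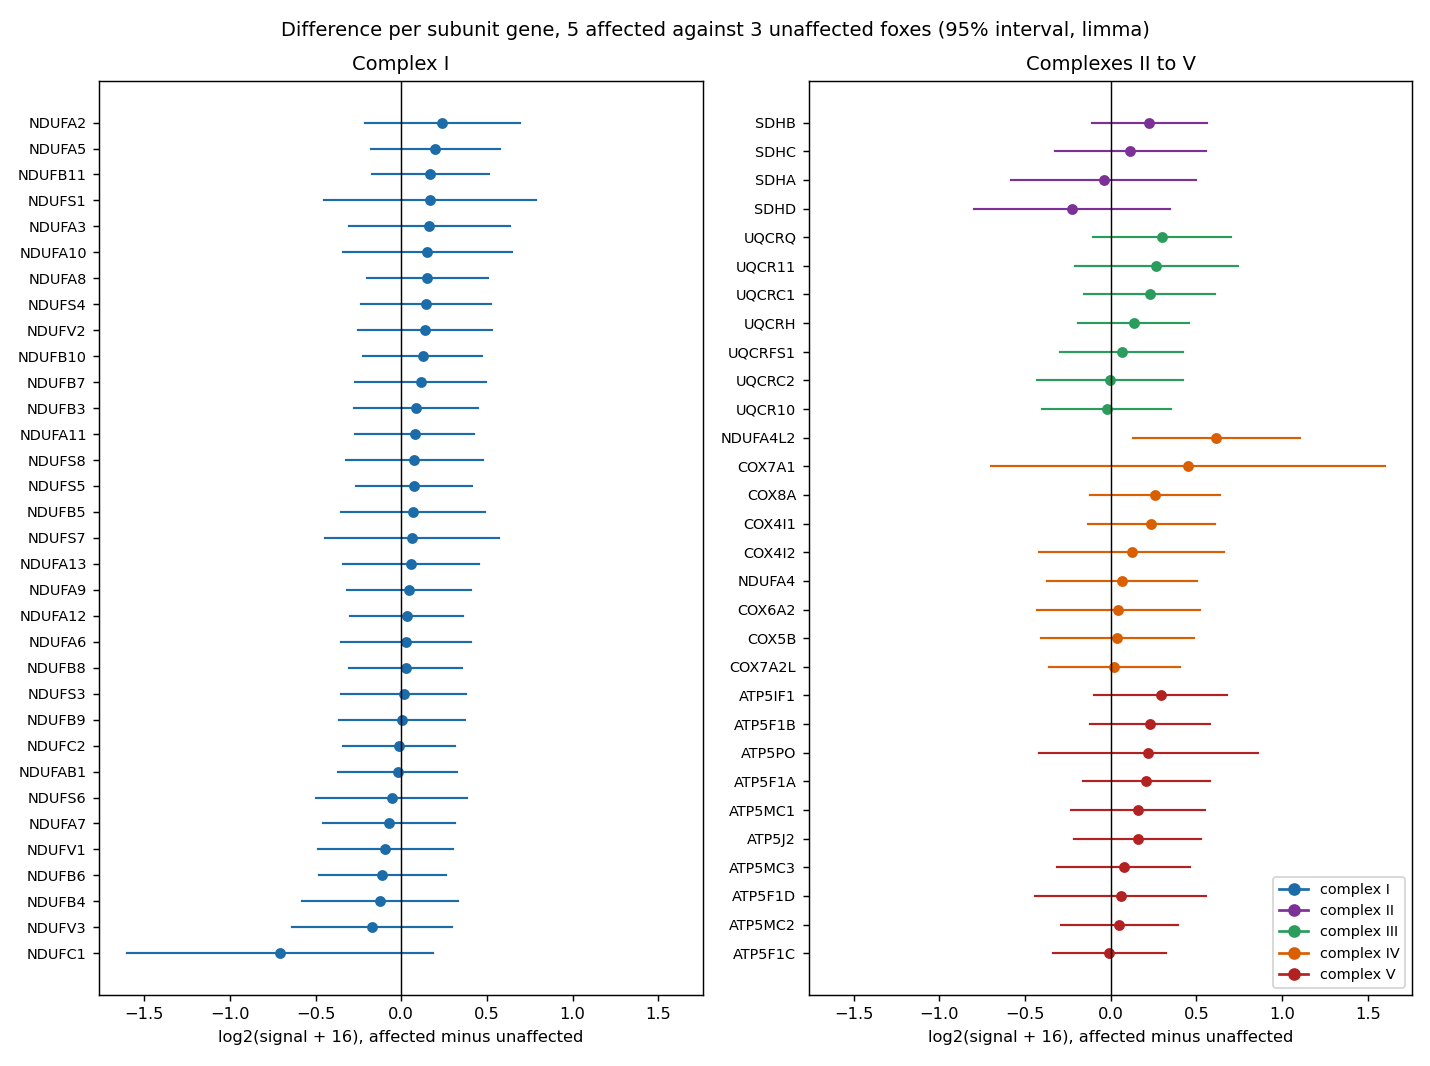
Log2 difference (affected minus unaffected foxes, log2(signal + 16)) of each of the 63 subunit genes, sorted within each complex; points are differences and lines 95% intervals from limma (5 against 3 foxes). Most points lie just right of 0, the interval of 1 gene, NDUFA4L2 at 0.62, leaves out 0, and NDUFC1 lies furthest to the left at -0.71.

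A value per fox was made for each complex as the mean of its members, each centred over the 8 foxes. Over all 63 members affected fox 55 stood highest at 0.17, followed by affected foxes 107 (0.063), 381 (0.015) and 757 (-0.0026). Affected fox 19 stood at -0.088, between unaffected foxes 97 (-0.094) and 402 (-0.042), with unaffected fox 86 at -0.023. So 4 of the 5 affected foxes lay above each unaffected fox, and fox 19 did not. With quantile normalization or with median centring, 2 of the 5 did. Fox 55 had the highest value of the 8 foxes in 29 of the 63 members, and unaffected fox 97 the lowest in 14, affected fox 19 in 12 and unaffected fox 86 in 11. The group means differed by 0.085, by 0.050 without fox 55, by 0.031 with quantile normalization and by 0.12 with median centring. The difference was 0.089 within foxes of high and 0.075 within foxes of low 5' actin, and 0.11 in males and 0.048 in females. Fox 402 is the only unaffected fox of low 5' actin and also the only unaffected female.

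**Figure D2:**
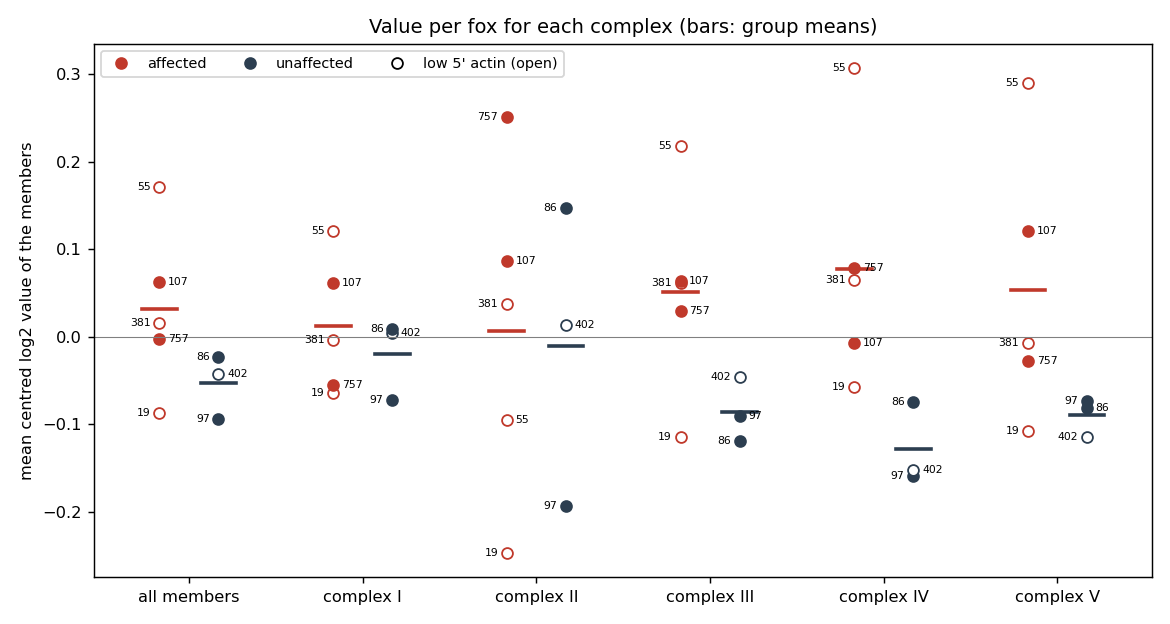
Mean centred log2 value per fox (vertical axis) over all 63 members and over each complex; each point is a fox with its number, bars are group means, and open points are foxes of low 5' actin. Affected fox 55 is the highest point over all members and in complexes I, III, IV and V, and affected fox 19 lies with or below the unaffected foxes in complexes I, II, III and V.

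In complex I, 24 of 33 members had a higher mean in affected foxes (median 0.061, or 0.0092 with quantile normalization, 0.023 without unaffected fox 97 and 0.032 without affected fox 55). Its catalytic core carries the flavin and the iron-sulfur clusters, and of the 6 core subunits read here (NDUFV1, NDUFV2, NDUFS1, NDUFS3, NDUFS7 and NDUFS8) 5 were higher, from -0.093 for NDUFV1 to 0.17 for NDUFS1. Both ends depend on the probe set: the other 3 tested probe sets of NDUFS1 differed by -0.48 to -0.045 and the second of NDUFV1 by 0.12. The NDUFS1 value turned to -0.069 without unaffected fox 97. Of the 27 accessory subunits, which surround and steady the core, 19 were higher (median 0.056). By symbol 10 of 12 NDUFA, 7 of 9 NDUFB, 6 of 7 NDUFS, 1 of 3 NDUFV and 0 of 2 NDUFC genes had the higher mean. The value per fox ran from -0.065 to 0.12 among affected foxes and from -0.072 to 0.0086 among the others, which is an overlap, and the group means differed by 0.032, or by 0.0043 without fox 55.

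NDUFA2, an accessory subunit with a thioredoxin-like fold, had the largest positive difference in complex I. It read 1303, 2245, 1736, 1713 and 1759 in affected foxes 19, 55, 107, 381 and 757 and 1716, 1270.2 and 1427 in unaffected foxes 86, 97 and 402. The groups overlapped, with fox 55 highest and fox 97 lowest. The difference was 0.24 ± 0.20 (SE), and 0.14 both without fox 55 and without fox 97. NDUFA5, an accessory subunit of the matrix arm, read 1005 to 1251 in affected foxes (median 1108) and 864.5, 879 and 1132 in unaffected foxes, a difference of 0.20 ± 0.17, or 0.32 without unaffected fox 402 and 0.13 without unaffected fox 97.

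NDUFC1, a small membrane subunit, had the largest negative difference of all members. It read 1250.2, 677, 2590.2, 1141 and 2339.6 in affected foxes 19, 55, 107, 381 and 757 and 2779, 2384 and 1935 in unaffected foxes 86, 97 and 402. Affected foxes 107 and 757 read like the unaffected foxes, while 19, 55 and 381 read below each of them. The difference was -0.71 ± 0.40 (SE; limma unadjusted p = 0.107, adjusted p = 0.9999), and -0.44 without fox 55. The 3 low affected foxes are those of low 5' actin. The difference was -0.064 within foxes of high and -0.96 within foxes of low 5' actin, the latter against fox 402 alone. The second probe set of NDUFC1 that was tested was dim, at 21.5 to 65.7, and differed by 0.35. NDUFV3, an accessory subunit next to the flavin site, differed by -0.17 ± 0.21, or -0.029 without unaffected fox 402, -0.29 without unaffected fox 97, -0.069 without fox 757 and -0.26 without fox 55, and its second probe set by 0.19.

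In complex II the members split evenly, with 2 higher and 2 lower in affected foxes (median 0.037, or 0.0061 with quantile normalization). With so few members the median had no stable sign: it was -0.053, -0.017 and -0.016 without foxes 97, 757 and 402, 0.17 without fox 19, -0.14 in males and 0.17 in females. SDHA and SDHB are the catalytic subunits (flavin and iron-sulfur), and SDHC and SDHD anchor them in the membrane. SDHB read 1545, 1513, 1391, 1368 and 1486 in affected foxes 19, 55, 107, 381 and 757 and 1204, 1163 and 1383 in unaffected foxes 86, 97 and 402. The overlap came from unaffected fox 402, which read above affected fox 381. The difference was 0.22 ± 0.15 (SE; adjusted p = 0.9999 in limma; a two-sided exact permutation p was 0.0357 before and 1 after adjustment over all probe sets).

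SDHA read 472, 816, 809, 863 and 949 in affected and 961, 682 and 734 in unaffected foxes, in the same order of foxes, and SDHC 1064, 1547, 1569, 1573 and 1576 against 1630.4, 1193 and 1233. In both, affected fox 19 was the lowest of the 8 foxes and stood apart from the other 4 affected foxes. SDHA differed by -0.041 ± 0.24 (SE), and by 0.13 without fox 19 and 0.10 without unaffected fox 86. SDHC differed by 0.11 ± 0.20, by 0.22 without fox 19, by 0.25, 0.032 and 0.055 without unaffected foxes 86, 97 and 402. SDHD read 284 in fox 55 and 429.9 to 659.9 in the other 4 affected foxes, against 579.5, 440.4 and 599 in unaffected foxes, a difference of -0.23 ± 0.26 that was -0.064 without fox 55 and turned to 0.21 within foxes of high 5' actin. In this complex the value of fox 55 over the 4 members was -0.096, below foxes 757 (0.25), 86 (0.15), 107 (0.087), 381 (0.037) and 402 (0.013). Fox 55 still read above the mean of the 8 foxes in 3 of the 4 members, and its low SDHD reading pulled the value down.

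In complex III, 5 of 7 members had a higher mean in affected foxes (median 0.13, or 0.029 with quantile normalization). UQCRQ, a small subunit, read 3638, 5623, 4655, 4695 and 4465 in affected foxes 19, 55, 107, 381 and 757 and 4107, 3708 and 3372 in unaffected foxes 86, 97 and 402. Affected fox 19 read below unaffected foxes 86 and 97, and the other 4 affected foxes read above each unaffected fox. The difference was 0.30 ± 0.18 (SE, 95% interval -0.11 to 0.70), and 0.17 with quantile normalization. The second probe set of UQCRQ differed by 0.081. In UQCR11, another small subunit, fox 19 at 557 read below each unaffected fox (617 to 695), with the other affected foxes at 766 to 1101, a difference of 0.27 ± 0.21 that was 0.14 without fox 55. Its other tested probe sets ranged from -0.37 to 0.71. Those ends came from dim probe sets, at 24.6 to 88.0 and 19.9 to 81.8 over the foxes, and the brighter ones differed by 0.11 and 0.10. UQCRC2, a core protein, and UQCR10 differed by -0.0059 ± 0.19 and -0.025 ± 0.17 and changed sign when single foxes were left out. The value per fox was -0.12 in affected fox 19 and 0.029 to 0.22 in the other affected foxes, against -0.12, -0.091 and -0.046 in unaffected foxes 86, 97 and 402, a difference of 0.14. With quantile normalization the difference was 0.053, and 3 of the 5 affected foxes stood above each unaffected one.

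In complex IV, 9 of 9 members had a higher mean in affected foxes (median 0.12). That median is the value of COX4I2, a dim member. With an offset of 1 or 64 in place of 16 it was 0.16 or 0.069. With the dimmest 60% of probe sets left out it was 0.24 over 7 members. The median was 0.093 without NDUFA4L2, 0.22 without unaffected fox 86, and 0.23 and 0.086 without affected foxes 107 and 55. COX4I2, COX5B, COX6A2, COX7A2L and NDUFA4 changed sign when some fox was left out. The value per fox was -0.057, 0.31, -0.0075, 0.065 and 0.078 in affected foxes 19, 55, 107, 381 and 757 and -0.074, -0.16 and -0.15 in unaffected foxes 86, 97 and 402, so each affected fox stood above each unaffected one by a narrow margin. This order came with NDUFA4L2: over the other 8 members unaffected fox 86 stood at 0.028, above affected foxes 19 (-0.095) and 107 (-0.069). With quantile normalization COX5B, the zinc-binding subunit, differed by -0.067 where it had differed by 0.037.

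NDUFA4L2, a paralog of NDUFA4 known as a target of the hypoxia factor HIF-1, was the 1 member with an interval that left out 0. It read 1124, 919, 1323, 1051 and 1166 in affected foxes 19, 55, 107, 381 and 757, and 502, 887 and 829 in unaffected foxes 86, 97 and 402. The 5 affected values lay above the 3 unaffected ones, and fox 86 was the lowest by a wide gap. The group means were 1116 ± 149 (SD, n = 5) and 739 ± 207 (SD, n = 3), a log2 difference of 0.62 ± 0.22 (SE, 95% interval 0.13 to 1.10). The limma p was 0.0185 unadjusted and 0.9999 adjusted over 25754 probe sets, and the two-sided exact permutation p was 0.0179, the smallest that 5 against 3 can give, and 1 after adjustment over all probe sets. The difference was 0.37 without fox 86, and 0.88 and 0.31 within foxes of high and low 5' actin. Within males and females it was 0.72 and 0.41. Low 5' actin foxes and females were each set against fox 402 alone. NDUFA4 itself differed by 0.066 ± 0.20, and by -0.11 without unaffected fox 402.

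The other subunits with tissue partners were read next. COX4I1, the common form of the regulatory subunit, read 3318 to 4748 in affected foxes (median 3737) and 3176, 3216 and 3371 in unaffected foxes, where affected fox 19 fell below unaffected fox 86. It differed by 0.24 ± 0.17 (SE), or 0.15 with quantile normalization, and its second probe set by 0.31 with no overlap between the groups. COX4I2, the lung form, was dim, at 21.9 to 61.6 over the 8 foxes, with fox 19 highest. It differed by 0.12 ± 0.24, and by -0.033 without fox 19. COX8A, the common form of a small subunit, differed by 0.26 ± 0.17, or 0.13 without unaffected fox 86, and its other probe sets by 0.036 to 0.37. COX7A2L, which joins complexes III and IV, differed by 0.021 ± 0.17, and its second probe set by -0.11.

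COX7A1, the muscle form of its subunit, was the most variable member, with an SD of 0.84 over the 8 foxes on the log2 scale. It read 137, 769.8, 168, 624 and 319 in affected foxes 19, 55, 107, 381 and 757, and 265, 181 and 269 in unaffected foxes. The affected foxes thus held both the highest and the lowest values. The difference was 0.45 ± 0.52 (SE), and 0.15, 0.23, 0.28, 0.68 and 0.74 without foxes 55, 381, 97, 107 and 19. COX6A2, also a muscle form, read 36.9 to 74.2, highest in fox 55, and differed by 0.044 ± 0.21. Of 17 muscle markers, 15 were annotated and 2, MYH2 and MYL2, were at background on each array. The summed level of the list was 421 to 1606 among affected foxes against 366 to 415, and fox 55, at 1606, was followed by fox 381 at 613. TNNI2, a troponin of fast muscle, made up most of the sum in fox 55, with 1308 in fox 55, 325 in fox 381 and 124 to 256 in the other foxes. The part of muscle in the values of COX7A1 and of fox 55 was not tested.

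**Figure D3:**
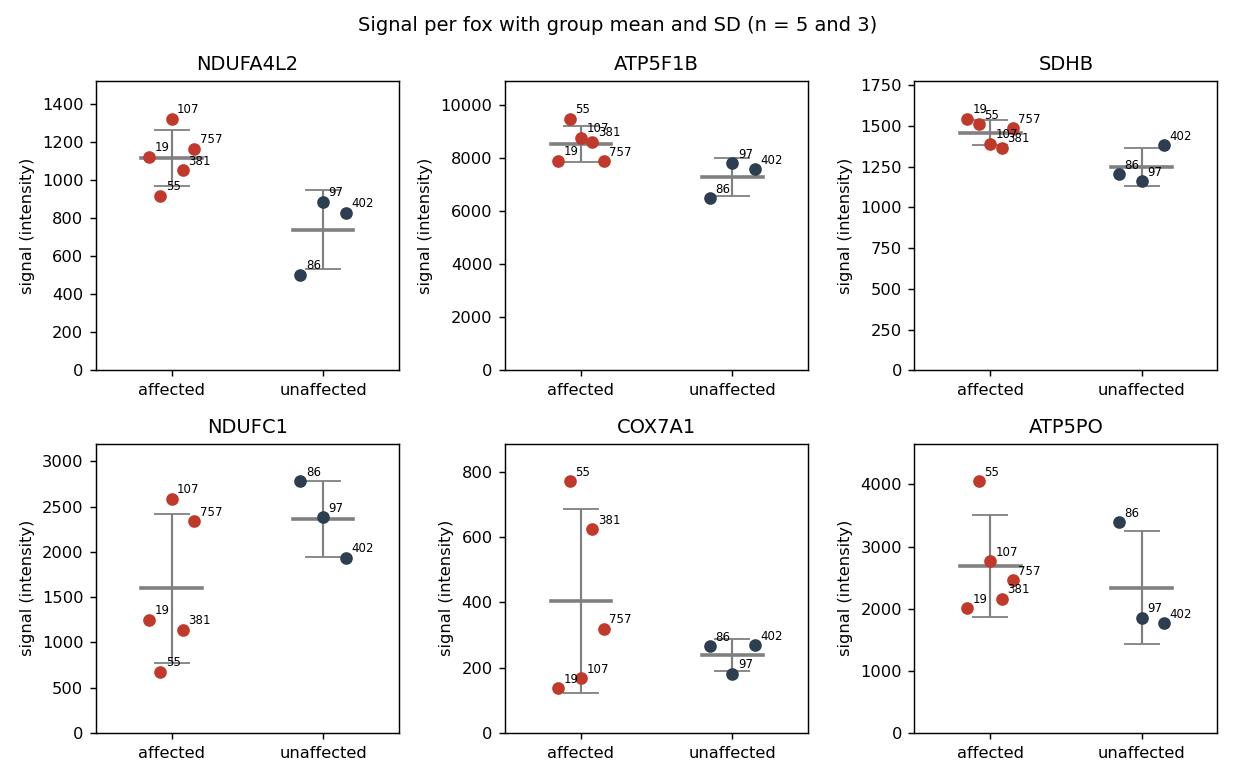
Signal (linear intensity, vertical axis) of 6 members in each fox, with fox numbers, group means and SD (n = 5 and n = 3). NDUFA4L2 and ATP5F1B do not overlap between the groups, SDHB overlaps through unaffected fox 402, and NDUFC1, COX7A1 and ATP5PO have an SD in the affected group that is larger than the difference of the group means.

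In complex V, 9 of 10 members had a higher mean in affected foxes (median 0.16, or 0.071 without fox 55 and 0.061 with quantile normalization). ATP5F1B, the catalytic beta subunit of the head, read 7894, 9475, 8756, 8616 and 7874 in affected foxes 19, 55, 107, 381 and 757, and 6479, 7803 and 7584 in unaffected foxes 86, 97 and 402. The groups did not overlap, but affected fox 757 and unaffected fox 97 were nearly level. The means were 8523 ± 668 (SD, n = 5) and 7289 ± 710 (SD, n = 3), a difference of 0.23 ± 0.16 (SE, 95% interval -0.12 to 0.58; adjusted p = 0.9999 in limma). It was 0.14 without unaffected fox 86 and 0.12 with quantile normalization, and in its second probe set, with a difference of 0.17, the groups overlapped.

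ATP5IF1, not a subunit, is the inhibitor that keeps ATP synthase from running backwards, and it had the largest difference in complex V. It read 6136, 7923, 5954, 6716 and 5832 in affected foxes, and 5135, 4724 and 6091 in unaffected foxes, where fox 402 lay above affected foxes 107 and 757. The difference was 0.29 ± 0.17 (SE), 0.15 with quantile normalization, and 0.15 to 0.38 in its other 2 probe sets. The 3 genes of the proton-carrying ring differed by 0.16 (ATP5MC1), 0.051 (ATP5MC2) and 0.075 (ATP5MC3), and with quantile normalization by 0.086, -0.071 and -0.039. Without fox 55 ATP5MC1 differed by 0.082, without fox 86 ATP5MC3 by -0.055, and ATP5MC2 ran from 0.026 to 0.11 as single foxes were left out. ATP5F1C, the central stalk, differed by -0.0078 ± 0.15 and had one of the smallest spreads, from 3079 to 3619 over the 8 foxes.

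**Figure D4:**
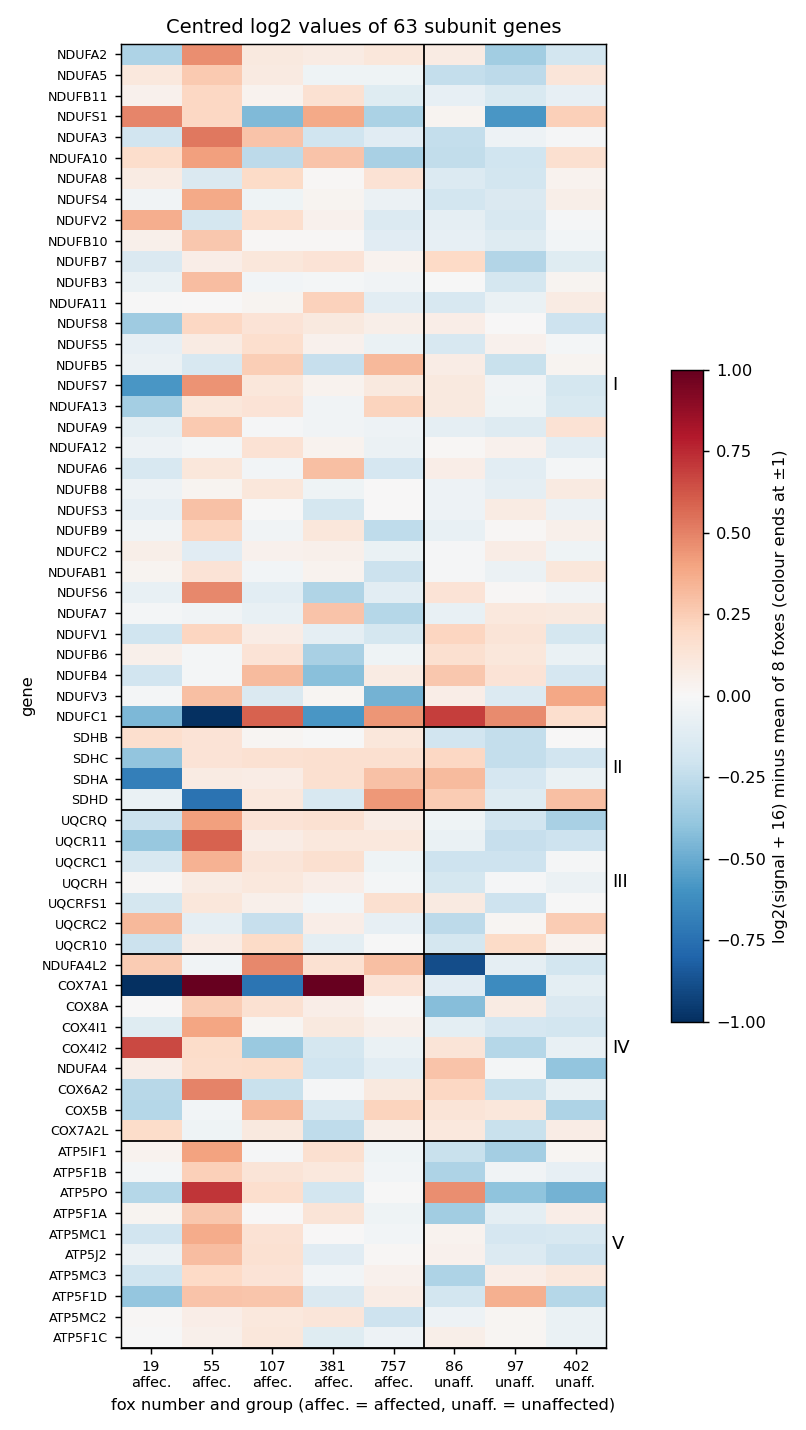
Centred log2 values (colour, log2(signal + 16) minus the mean of the 8 foxes, ending at -1 and 1) of the 63 genes in rows, by complex and then by difference, against the 8 foxes in columns. Fox 55 is red over much of complexes I, III, IV and V, with NDUFC1 and SDHD as blue exceptions, and COX7A1 and NDUFC1 show the strongest colours.

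Members varied less between foxes than genes in general. The median SD over the 8 foxes was 0.18 for members and 0.31 for all genes tested, on the log2 scale, and 55 of 63 members lay below the latter. Level and spread are linked on arrays, so this is a description. In 5 members the SD was under 0.1, among them NDUFC2 at 0.068 (1037 to 1183 over the foxes) and NDUFB8 at 0.073 (2891 to 3328). In 6 it was over 0.35: COX7A1, NDUFC1, ATP5PO, NDUFA4L2, NDUFS1 and SDHD. NDUFC2, NDUFB8, ATP5PO and NDUFS1 are named here after their values were seen. ATP5PO, a subunit of the stalk that holds the head still, read 4048 in affected fox 55 and 3393 in unaffected fox 86, and 1766 to 2764 in the other foxes, so that the high values came from both groups. Its difference was 0.22 ± 0.29 (SE), and 0.52, 0.061, 0.087 and 0.051 without foxes 86, 55, 97 and 402.

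Foxes of high and low 5' actin were also compared. Each set held both disease groups, the low set with fox 402 as its only unaffected fox. The sets did not overlap in 3 members higher with high 5' actin, where 5.66% of genes did so, and in 6 members lower, where 5.01% did so. NDUFC1, COX5B and NDUFB4 were the higher ones, with differences of 0.98 ± 0.26 (SE), 0.43 ± 0.15 and 0.40 ± 0.16 in a model with disease as a term. NDUFS1 and NDUFA10 led the lower ones at -0.66 ± 0.18 and -0.51 ± 0.15, followed by ATP5IF1, ATP5F1A, NDUFS4 and NDUFAB1 at -0.25 to -0.17. NDUFS1, the largest core subunit of complex I, read 914 to 1399 in the high and 1586 to 1931 in the low set. Its other tested probe sets overlapped between the sets, the brightest of them at 423 to 498 in the high and 278 to 566 in the low set. The second tested probe set of NDUFC1, a dim one, tended the opposite way, at 21.5 to 36.9 in the high and 33.4 to 65.7 in the low set. By limma 0 members passed an adjusted p under 0.05 here (0.037% of genes did), with 0.212 for NDUFC1, and these genes were picked after their values were seen.

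Markers of the cell types in gum were read beside the subunits. Of 9 leukocyte markers 9 had a higher mean in affected foxes (median 0.23), with a summed signal of 26074 to 31536 among affected foxes against 25817 to 29416. Of 7 keratinocyte markers 2 were higher (15732 to 27444 against 14217 to 30784), of 8 fibroblast markers 5 (10096 to 27397 against 8220.04 to 30667) and of 6 endothelial markers 2 (757 to 1278 against 765 to 1586). For fat and red blood cells 1 marker each was tested and was higher, by 0.061 and 0.16. Fox 55, highest in many subunits, had the highest leukocyte sum and the lowest keratinocyte and fibroblast sums of the affected foxes. The lowest keratinocyte sum of the 8 foxes, 14217, was that of unaffected fox 86. The part of cell makeup in the subunit values was not tested.

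For 34 members more than 1 tested probe set read the gene, and in 14 of them at least 1 other tested probe set differed in sign from the one used. Of all 110 tested probe sets of members, 77 had a higher mean in affected foxes, where 43.5% of all probe sets tested did. At an unadjusted limma p under 0.05, 2 were higher (NDUFA4L2 and a dim one of UQCR11), where 1.16% of all probe sets were. Another 2 were lower (a dim one of NDUFA6 at -0.44 and one of NDUFS1 at -0.48), where 1.53% were. NDUFB6, an accessory subunit of complex I, is a case of probe sets that part ways. Its probe set with the highest mean read 1731 to 2424 over the 8 foxes. The second read 3574 in fox 19, 2212 in fox 757, 3716 in fox 86 and 3359 in fox 402, and 572 to 901 in foxes 55, 97, 107 and 381. Each of these sets holds affected and unaffected foxes, and the third probe set, at 213 to 316, did not follow the split. The differences between the disease groups were -0.11, -0.72 and -0.15. Of the probe sets used, 41 carry the array maker's suffix _s and 1 the suffix _x, which mark probes shared with related transcripts, so near-identical copies cannot be told apart there.

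**Figure D5:**
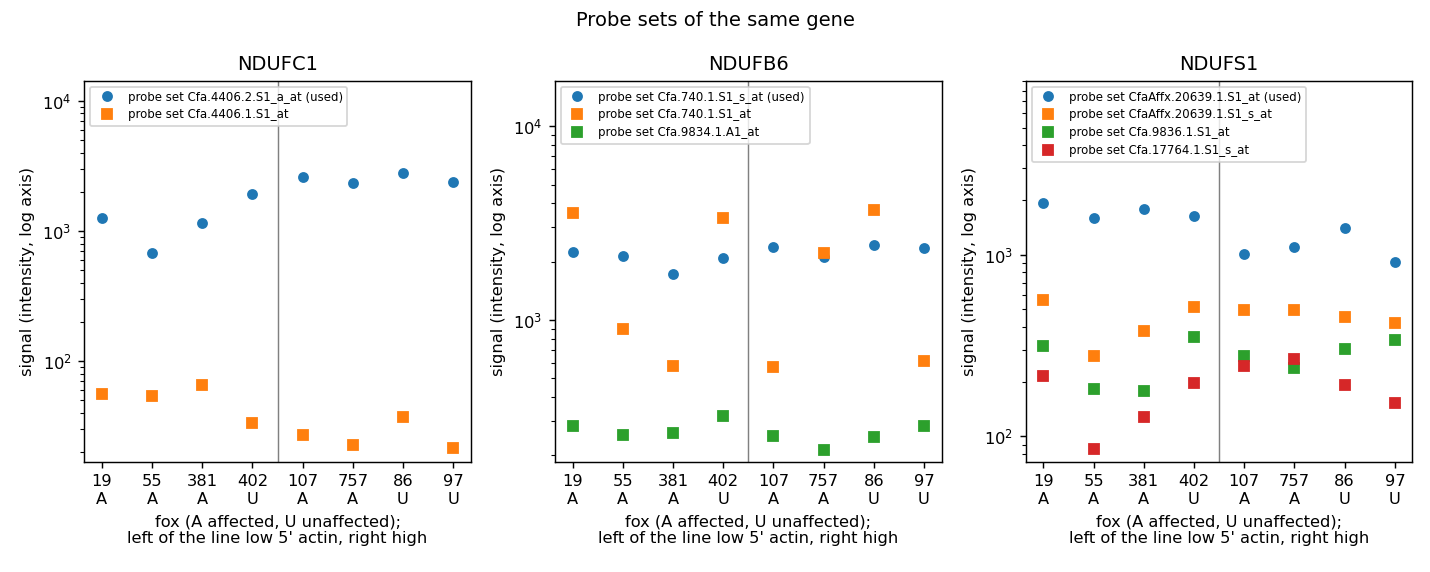
Signal (linear intensity on a log axis) of the tested probe sets of NDUFC1, NDUFB6 and NDUFS1 in each fox (A affected, U unaffected; left of the line low 5' actin). Circles are the probe sets used; a second NDUFB6 probe set splits the foxes into 4 at 2212 to 3716 and 4 at 572 to 901, while the others of that gene do not.

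Sex was tested with disease as a term. In limma 0 members passed an adjusted p under 0.05 between males and females, as 0% of genes did, and 0 members had an unadjusted p under 0.05, where 1.93% of genes did. The sexes did not overlap in 3 members higher in males, where 1.41% of genes did so, and in 0 lower, where 0.739% did so. NDUFA4 read 1512 ± 125 in males (SD, n = 5) and 1166 ± 118 in females (SD, n = 3), a male minus female difference of 0.38 ± 0.17 (SE, limma adjusted p = 0.9999), and the others were NDUFB6 at 0.22 ± 0.16 and ATP5F1C at 0.12 ± 0.15. For an unequal disease difference in the sexes 0 members had an unadjusted p under 0.05 (2.39% of genes did) and 0 passed when adjusted (0% of genes did), with 1 unaffected female in that test.

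Other genes of the pathway were read beside the subunits. Of the assembly factors with cytochrome c, which build the complexes or carry electrons, 11 of 39 had a higher mean in affected foxes (median -0.054), and 0 passed in limma. They ranged from NDUFAF7 and NDUFAF4 at -0.43 ± 0.29 (SE) and -0.37 ± 0.23, both needed to build complex I, to COX15 at 0.21 ± 0.17 and SCO1, which delivers copper to complex IV, at 0.32 ± 0.20. CYC1, the heme subunit of complex III that the symbol rule misses, differed by 0.073 ± 0.18, and CYCS, cytochrome c, by 0.0045 ± 0.19. The difference between subunits and assembly factors was not tested.

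Of citric acid cycle and pyruvate dehydrogenase genes, 5 of 15 were higher (median -0.067), from SUCLA2 and OGDH at -0.35 ± 0.20 (SE) and -0.28 ± 0.28 to IDH3G and SUCLG1 at 0.15 ± 0.18 and 0.19 ± 0.18. Of 13 regulators of mitochondrial biogenesis 4 were higher (median -0.073). Among them GABPA and NRF1, factors known to bind promoters of subunit genes, differed by -0.38 ± 0.20 and 0.20 ± 0.27, YY1 by 0.20 ± 0.16 and POLRMT, the RNA polymerase of mitochondria, by -0.40 ± 0.27. PPARGC1A, the coactivator of this programme, was at background in 7 of the 8 foxes and was not tested. Of 17 genes of mitochondrial transport and import 10 were higher (median 0.034), from TOMM40 and HSPA9 at -0.51 ± 0.29 and -0.38 ± 0.18 to TIMM44 and TIMM50 at 0.23 ± 0.16 and 0.24 ± 0.16. In these 4 lists limma called 0 genes at an adjusted p under 0.05, where 0% of all genes were called. At an unadjusted p under 0.05 it gave 0, where 1.24% of genes were higher and 1.3% lower. The groups did not overlap in 1 regulator and 2 genes of transport and import, all higher in affected foxes, where 1.12% of genes did so. They overlapped in each gene of the other lists.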

How the data were processed

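Per the submitters' processing notes, the authors made the deposited linear intensity values with MAS5; its version, background method and scaling were not given in the sources used here. In the deposited table the mean intensity, after 2% was trimmed from both ends, came to 150 for each of the 8 arrays. Of 43035 probe sets, 111 controls and the 40% with the lowest mean were left out, which left 25754. Symbols came from the platform annotation; 5 probe sets that pair a subunit with another gene were not used. The log2(signal + 16) values were not normalized again and were fitted with limma 3.58.1 in R 4.3.3 (lmFit, eBayes, Benjamini-Hochberg over all probe sets), after a test on simulated data. Exact permutation tests used the 56 splits of 8 foxes into 5 and 3. The number of arrays limits the precision. Nothing in the labels says more of how the foxes are related.

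The members, the pathway lists and the muscle and tissue markers were chosen with earlier results of these data known. Members were named by a rule: per complex the 2 highest and 2 lowest differences, members with an unadjusted p under 0.05 or groups that do not overlap, and the sets of tissue isoforms; from each list up to 2 genes per direction. CYC1, CYCS, PPARGC1A and some variable members were named after their values were seen.

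Alternatives were run for the normalization between arrays, the offset, the filter on dim probe sets, sex, array weights, the prior variance, the probe set per gene, 5' actin and each fox left out. Differences relative to all genes, and medians without NDUFC1 or NDUFA4L2, were added after seeing the data.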

Additional observations from a re-analysis of the deposited data

Results flagged for a closer look

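In SDHA affected fox 19 stood apart from the other 4 affected foxes: its gap to the nearest of them was 0.770 of the range of the group on the log2 scale. In SDHC the same fox stood apart with a gap of 0.952 of the range. SDHA and SDHC were flagged among 33 such checks, and chance flags about 1 in 20 groups. Fox 19 is of the low 5' actin set, and in SDHB it was the highest of the 8 foxes at 1545.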

How the results depend on the processing

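The 8 arrays limit what can be seen: the median standard error of a member was 0.17, larger than most differences. No member passed limma's adjusted test under any setting run, so the settings bear on sizes and directions. With quantile normalization the medians were 0.0092, 0.0061, 0.029, 0.14 and 0.061 in complexes I to V. In females alone the medians were -0.029 in complex I and 0.24 in complex IV. In low 5' actin foxes the complex IV median was 0.30, the value of the dim COX4I2. Both of these settings have fox 402 as their only unaffected fox. Without shared-probe sets 27 of 37 members were higher. Leaving out each fox gave medians of 0.023 to 0.079, -0.053 to 0.17, 0.12 to 0.17, 0.086 to 0.23 and 0.071 to 0.20 in complexes I to V. The male against female test called 1 probe set, and 1 to 2 with a fox left out (2 without fox 55); the interaction could not be fitted without fox 402.

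Of 27 named members 15 changed sign somewhere. Quantile normalization gave COX5B -0.067, ATP5MC2 -0.071 and ATP5MC3 -0.039. Median centring gave UQCR10 0.0093, UQCRC2 0.028 and ATP5F1C 0.026. Sex as a term gave ATP5F1C 0.00049. Males alone gave NDUFV3 0.079, SDHC -0.024, UQCR10 0.012, UQCRC2 0.12, COX5B -0.12 and ATP5F1C 0.012. Females alone gave NDUFA5 -0.17, SDHA 0.30, COX4I2 -0.048, COX7A2L -0.17 and ATP5MC3 -0.098. Array weights gave SDHA 0.069 and ATP5F1C 0.014. The mean of probe sets gave NDUFV3 0.011 and COX7A2L -0.043, and leaving out shared probe sets NDUFV3 0.19. A 5' actin term gave SDHA 0.029, UQCR10 0.0029 and ATP5F1C 0.012. High 5' actin alone gave SDHA 0.11, SDHD 0.21, UQCR10 0.089, COX4I2 -0.14, COX6A2 -0.055, NDUFA4 -0.095 and ATP5MC2 -0.037. Low 5' actin alone gave NDUFA5 -0.015, COX7A2L -0.11, ATP5F1C 0.038 and ATP5MC3 -0.11. Among the named members the ranges with each fox left out that crossed 0 were -0.042 to 0.022 (ATP5F1C), -0.055 to 0.15 (ATP5MC3), -0.033 to 0.23 (COX4I2), -0.11 to 0.11 (COX5B), -0.076 to 0.16 (COX6A2), -0.083 to 0.087 (COX7A2L), -0.11 to 0.23 (NDUFA4), -0.14 to 0.13 (SDHA), -0.12 to 0.063 (UQCR10) and -0.14 to 0.12 (UQCRC2). The cause was not tested. No paired analysis was possible because each fox has its own number.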
